A study of Mus musculus with 8 samples.

Results

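The genes described here are 35 genes of mitosis and of the G2 to M transition, named as a list of known mitotic genes and looked up by symbol among the 55414 gene identifiers of a count table. The rule used the symbols of genes known for mitosis and no measured value as a threshold, but the list was chosen with earlier results of these data known. The table holds RNA-seq counts of Paneth cells, the granule-filled secretory cells at the base of the small intestinal crypt, isolated by fluorescence-activated cell sorting from C57BL/6J mice. Of the 8 mice, 4 (control) ate standard chow and 4 (zinc deficient) ate a zinc depleted diet, each for 7 weeks, and each mouse gave 1 library. The labels name no other treatment or allele, and give no sex or age. All 35 genes had counts in every mouse, from 5 to 825 per gene and library.

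Mitosis begins when cyclin B bound to Cdk1 becomes active. Condensins and topoisomerase II compact and untangle the chromosomes, spindle microtubules attach to kinetochores, and the spindle checkpoint holds the anaphase-promoting complex in check until every chromosome is attached. Cyclins and other mitotic proteins are then marked for destruction, and cytokinesis divides the cell. In the intestinal crypt the dividing cells are the stem cells and their transit amplifying daughters, whereas Paneth cells are known as long-lived cells that have left the cell cycle. Transcripts of these genes accumulate in G2 and M phase, and many of their promoters carry a cell cycle genes homology region (CHR), which is bound by the DREAM and MuvB complexes, near CCAAT boxes, which are bound by NF-Y.

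The promoters of 6 genes are printed because they cover the 4 genes that passed the test between diets and the pair that lay closest to no difference. Each run shows 150 bases before and 30 bases from the annotated start of the gene's main transcript, 5′ to 3′ on the gene's strand, in GRCm39. The last 30 bases lie in the first exon. Capitals mark CHR letters (TTTGAA or TTCGAA) and CCAAT, on either strand.
Top2a (ENSMUSG00000020914, chr11:98915012-98915191, minus strand): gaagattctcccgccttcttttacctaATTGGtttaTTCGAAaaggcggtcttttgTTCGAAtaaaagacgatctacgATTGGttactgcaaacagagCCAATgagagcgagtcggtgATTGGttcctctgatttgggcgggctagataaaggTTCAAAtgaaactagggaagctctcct
Kif20b (ENSMUSG00000024795, chr19:34899602-34899781, plus strand): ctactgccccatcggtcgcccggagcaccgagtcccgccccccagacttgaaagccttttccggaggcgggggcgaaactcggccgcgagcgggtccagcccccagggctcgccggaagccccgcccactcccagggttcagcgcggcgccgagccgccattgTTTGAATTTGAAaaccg
Ube2c (ENSMUSG00000001403, chr2:164611668-164611847, plus strand): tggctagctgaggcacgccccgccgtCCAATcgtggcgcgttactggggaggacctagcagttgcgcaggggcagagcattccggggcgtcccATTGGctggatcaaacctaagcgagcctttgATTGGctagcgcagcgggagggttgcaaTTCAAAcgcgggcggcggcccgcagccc
Nusap1 (ENSMUSG00000027306, chr2:119448629-119448808, plus strand): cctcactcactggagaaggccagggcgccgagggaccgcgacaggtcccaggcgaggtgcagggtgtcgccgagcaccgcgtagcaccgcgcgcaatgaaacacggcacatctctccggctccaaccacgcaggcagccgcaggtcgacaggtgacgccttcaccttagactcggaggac
Cks2 (ENSMUSG00000062248, chr13:51799118-51799297, plus strand): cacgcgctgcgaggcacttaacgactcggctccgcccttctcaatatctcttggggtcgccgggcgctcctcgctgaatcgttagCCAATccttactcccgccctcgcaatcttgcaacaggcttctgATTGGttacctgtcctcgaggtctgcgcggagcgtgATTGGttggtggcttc
Cenpf (ENSMUSG00000026605, chr1:189420283-189420462, minus strand): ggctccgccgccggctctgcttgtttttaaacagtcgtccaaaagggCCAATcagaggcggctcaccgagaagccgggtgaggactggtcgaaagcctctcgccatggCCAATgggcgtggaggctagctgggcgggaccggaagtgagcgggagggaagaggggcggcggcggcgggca
Top2a showed CHR and CCAAT letters side by side in this window, and Ube2c showed both as well. Kif20b showed CHR letters in tandem just after the start and no CCAAT, and Nusap1 showed neither. The Cks2 and Cenpf windows held CCAAT but no CHR letters, and Cenpf had a CHR match shortly after the printed end.

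Over 300 bases around the start (250 before and 50 after), CHR letters were found in 22 of the 35 promoters, or 62.9%, against 18.8% of all 21770 protein-coding promoters and 15.4% of those of the genes tested between diets. CCAAT was found in 26 promoters (74.3%) against 39.9% of all protein-coding promoters. Both occurred together in 18 promoters (51.4%) against 8.25%. E2F letters (TTTGGCGC or TTTCGCGC), typical of S-phase genes, were found in 2 promoters (5.71%) against 1.01%, and in 10 of 34 S-phase promoters (29.4%). The shares are descriptions of the sequence, since a match alone does not show binding. The median log2 fold change between diets was -0.90 for the 22 genes with CHR letters and -0.86 for the 13 genes without them.

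**Figure D1:**
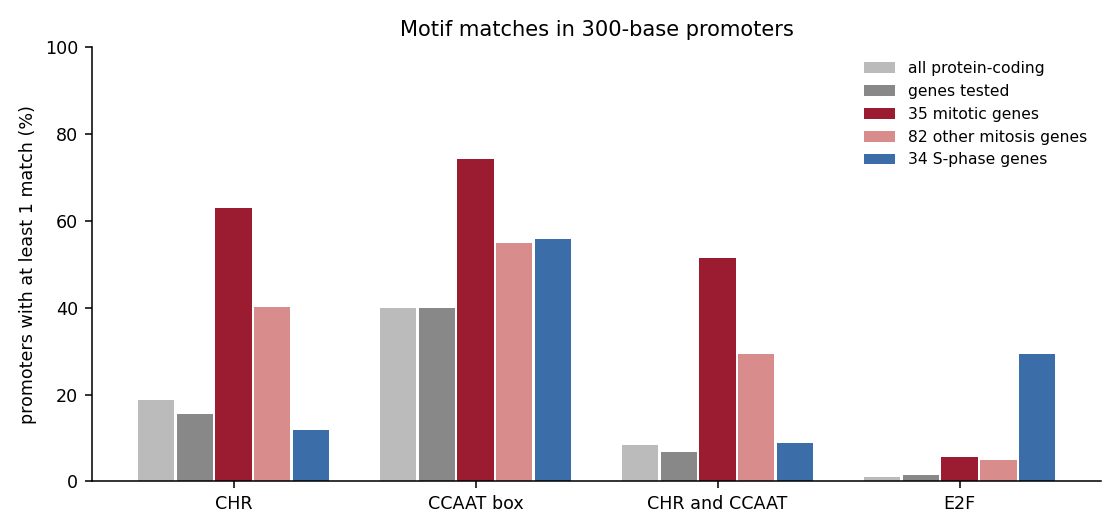
Share of 300-base promoters, in percent, with at least 1 match to each motif, on either strand, for all protein-coding genes, the genes tested between diets, the 35 mitotic genes, 82 other mitosis genes and 34 S-phase genes. CHR and CCAAT together were found in 51.4% of the mitotic promoters and in 8.25% of all protein-coding promoters, whereas E2F letters were most frequent in the S-phase genes.

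The libraries held 8557690 to 12648005 counts. Levels are given as normalised CPM, that is counts per 1000000 of the library size after TMM scaling by edgeR, and plain CPM is used where stated. Transcripts of Paneth cell markers (Lyz1, Mmp7, Itln1, Ang4, Defa24, Defa30 and Sox9) made up a summed 523078 ± 49101 CPM in control mice and 550143 ± 34258 CPM in zinc deficient mice (SD, n = 4 each), whereas stromal and erythroid markers were at or near 0. Markers of other epithelial cells were present. In plain CPM, goblet markers summed to a mean of 8242 in control and 8155 in zinc deficient mice. Stem and transit amplifying markers summed to 2212 and 1036, enterocyte markers to 325 and 253, and tuft markers to 58.9 and 113. Enteroendocrine markers summed to 37.0 and 23.7, without overlap between diets in plain CPM but with overlap in normalised CPM. The mitotic genes summed to 328 and 141 on this scale. The part of carried-over cells in these sums was not tested. TMM factors ran from 0.928 to 1.57 in control mice and from 0.719 to 1.10 in zinc deficient mice. Control replicate 1 had the highest factor, and its summed level of mitotic genes was the highest of the 8 mice on either scale.

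The mitotic genes were a minor component of these libraries. Together they took 0.0234% of the counts of a mouse on average. Mean levels over the 8 mice ran from 1.85 to 27.9 normalised CPM with a median of 4.70, and 30 of the 35 genes had a mean under 10. The upper limit that 0 counts allows is 3 counts, or between 0.237 and 0.351 CPM depending on the library, and every gene was above 3 counts in every mouse. By normalised CPM, Top2a was the highest and gave 12.9% of the summed level. In TPM the order was different. The length used there was that of all annotated exons of a gene, which can exceed the length of its main transcript. Cks2 (3.19 TPM), Ccna2 (3.01), Cdc20 (2.93), Ube2c (2.90) and Top2a (2.89) were close together at the top. Cenpf, which has the longest summed exons of the 35 genes (16565 bases), was the lowest at 0.187 TPM. The median was 0.843 TPM.

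The 35 genes were lower in zinc deficient mice as a group. The fitted log2 fold change of zinc deficient over control mice was below 0 for 35 of 35 genes, where 50.7% of the 10911 genes tested were below 0. The median was -0.89, a level of 0.539 of that in control mice, whereas the median of all genes tested was -0.0052, and 11 genes were below -1. By the edgeR quasi-likelihood test, 4 genes passed an adjusted p of 0.05 (Top2a, Kif20b, Nusap1 and Ube2c), where 0.257% of the genes tested passed in that direction. At an unadjusted p under 0.05, 30 of 35 were lower (all but Anln, Bub1, Ncapg, Cenpf and Cks2), where 6.04% of the genes tested were. For 16 genes every zinc deficient mouse was below every control mouse in normalised CPM, where 3.79% of the genes tested showed such a separation. The separation depended on the scale. In plain CPM the diets overlapped for some of these genes, Kif20a, Kif23, Aurkb, Prc1, Ect2 and Smc2 among them. Top2a, Kif20b, Nusap1 and Ube2c were separated in plain CPM as well. With DESeq2, 8 genes passed (Nusap1, Ube2c, Ect2, Smc4, Ccnb2, Top2a, Kif20b and Kif11), where 0.761% of the genes tested passed in that direction. In bulk libraries such as these, fewer cells of a type and less RNA per cell cannot be told apart.

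**Figure D2:**
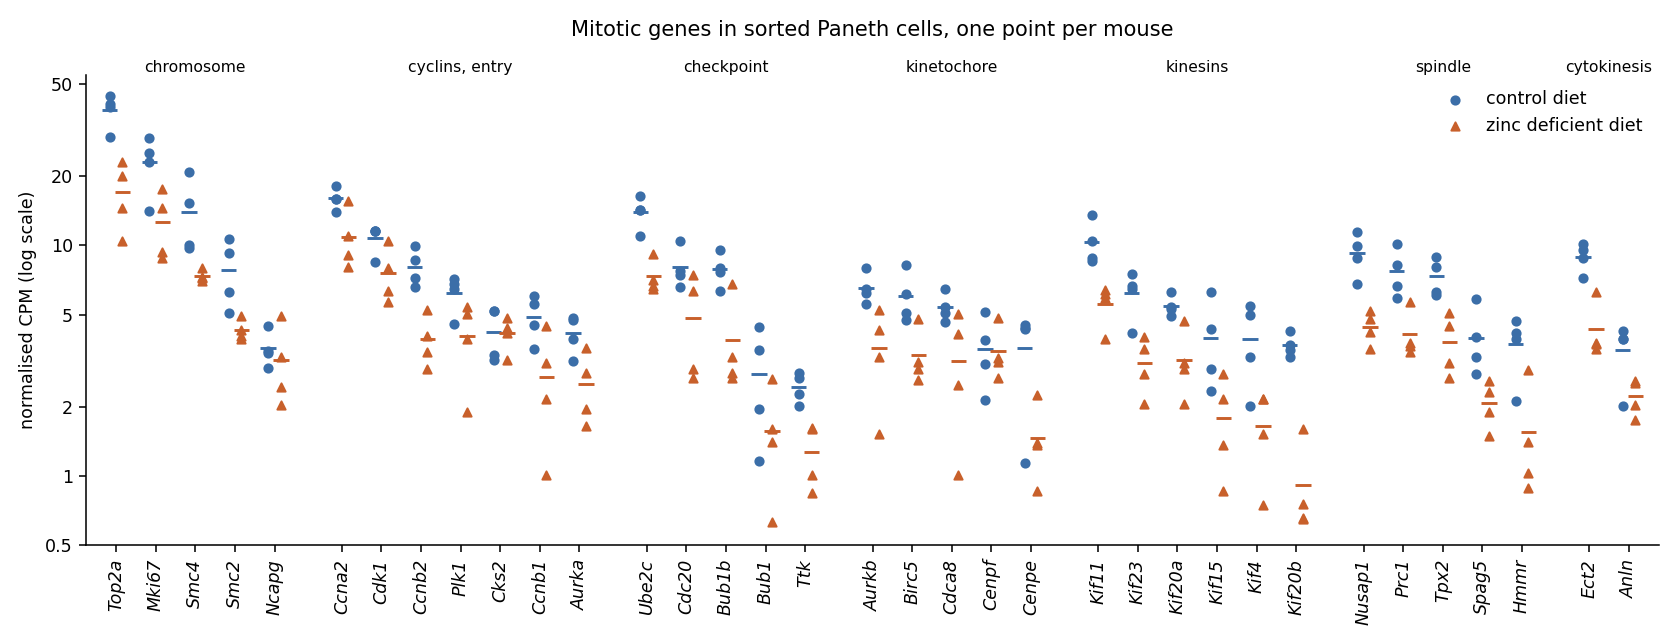
Level of each mitotic gene in each mouse, in normalised CPM on a log axis, with circles for control and triangles for zinc deficient mice, short lines at the group means (n = 4) and genes ordered by role and level. For 16 genes, Top2a, Kif20b, Nusap1 and Ube2c among them, the triangles all lie below the circles, whereas Cks2, Cenpf and Ncapg overlap widely.

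The genes are given by role below, and whether the roles differed from each other was not tested. Of the 5 genes of chromosome structure, 1 passed the adjusted test, where 0.257% of all genes tested passed as lower. The median log2 fold change was -0.87. Top2a encodes topoisomerase II alpha, which untangles sister chromatids. In control replicates 1 to 4 its level was 44.5, 40.9, 29.5 and 39.8 normalised CPM, and in zinc deficient replicates 1 to 4 it was 20.1, 10.5, 23.0 and 14.5. The groups did not overlap, and the lowest control mouse was still above the highest zinc deficient mouse. Top2a fell from 38.7 ± 6.44 to 17.0 ± 5.62 (SD, n = 4 each), a log2 fold change of -1.18 (SE 0.21, edgeR adjusted p = 0.0229), and ranked 10 among the 10911 genes tested by p. Mki67, whose product Ki-67 coats mitotic chromosomes, was 29.3, 25.2, 14.1 and 23.1 normalised CPM in control mice and 9.39, 8.84, 14.5 and 17.6 in zinc deficient mice. Control replicate 3 lay among the zinc deficient mice, and the log2 fold change of -0.86 (SE 0.24) did not pass (edgeR adjusted p = 0.153).

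The condensin subunits gave unlike values. Smc4, an ATPase subunit of condensin, was 20.7, 15.2, 9.71 and 10.1 normalised CPM in control mice and 7.98, 7.33, 7.02 and 7.20 in zinc deficient mice. The zinc deficient mice were all but equal and below every control mouse, while the control mice spread widely (log2 fold change -0.93, SE 0.23, edgeR adjusted p = 0.0897). Smc2, its partner ATPase, was also separated between diets, at 7.83 ± 2.58 against 4.31 ± 0.455 (SD, n = 4 each, log2 fold change -0.87). Ncapg, a non-ATPase condensin I subunit, was 4.48, 2.95, 3.40 and 3.49 normalised CPM in control mice and 4.96, 2.02, 3.27 and 2.43 in zinc deficient mice. Its highest value was in a zinc deficient mouse, and the log2 fold change was -0.18 (SE 0.32, edgeR adjusted p = 0.903). Whether Ncapg differed from Smc2 and Smc4 was not tested.

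The 6 kinesins, motor proteins that move along microtubules, had the most negative median of the roles, at -1.10. All 6 were lower at an unadjusted p under 0.05, where 6.04% of all genes tested were. Kif20b, a kinesin of the midzone and midbody, was 4.26, 3.28, 3.53 and 3.71 normalised CPM in control mice and 0.647, 0.758, 1.60 and 0.655 in zinc deficient mice. The control mice lay close together, and the highest zinc deficient mouse was below the lowest of them by a wide margin. Kif20b fell from 3.69 ± 0.417 to 0.914 ± 0.457 (SD, n = 4 each), a log2 fold change of -1.97 (SE 0.38, edgeR adjusted p = 0.0343), the most negative of the 35 genes. Its counts were low, at 6 to 79 per library. Set against the counts of the other 34 genes of the same library, Kif20b made up 13.9, 10.9, 15.2 and 14.0 per 1000 in control mice and 4.16, 6.43, 8.46 and 4.47 per 1000 in zinc deficient mice. The groups did not overlap on this measure either, which does not depend on the library scaling and carries no test here.

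Kif11 (Eg5), which pushes the spindle poles apart, was 13.5, 10.5, 8.82 and 8.58 normalised CPM in control mice and 6.15, 3.92, 6.38 and 5.89 in zinc deficient mice. It was the highest kinesin in level and separated the diets (log2 fold change -0.89, SE 0.22, edgeR adjusted p = 0.0915). Kif23, the motor of the centralspindlin complex, was 7.50, 6.48, 4.16 and 6.67 normalised CPM in control mice and 3.56, 2.78, 3.99 and 2.06 in zinc deficient mice, without overlap but with a narrow gap (log2 fold change -1.01). Kif20a, which carries the passenger complex to the midzone, was also separated by a narrow gap, from 4.92 in the lowest control mouse to 4.71 in zinc deficient replicate 3. Kif4, a chromosome-bound kinesin, and Kif15, which backs up Kif11, had log2 fold changes of -1.30 (SE 0.39) and -1.19 (SE 0.40), and their diets overlapped.

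The cyclins and entry kinases, 7 genes, had the smallest median difference of the roles at -0.61. By edgeR 6 were lower at an unadjusted p under 0.05, where 6.04% of all genes tested were. None passed the edgeR adjusted test, where 0.257% of all genes tested passed as lower. DESeq2 called Ccnb2, where 0.761% of the genes it tested passed in that direction. Ccnb2, a B-type cyclin, was 6.58, 9.92, 7.19 and 8.68 normalised CPM in control mice and 3.45, 4.04, 5.26 and 2.90 in zinc deficient mice. It was the only gene of this role without overlap between diets (log2 fold change -1.04, SE 0.25, edgeR adjusted p = 0.0780). Ccnb1, the main mitotic cyclin, was 3.56, 4.51, 5.55 and 6.04 normalised CPM in control mice and 2.16, 1.01, 4.47 and 3.09 in zinc deficient mice, with a log2 fold change of -0.82 (SE 0.35). Cdk1, the catalytic partner of the cyclins, was 8.47, 11.6, 11.6 and 11.5 normalised CPM in control mice and 6.37, 5.68, 10.4 and 7.95 in zinc deficient mice. A control mouse and a zinc deficient mouse crossed, and the log2 fold change was -0.48 (SE 0.22, edgeR adjusted p = 0.443).

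Ccna2, the A-type cyclin of S and G2 phase, was 18.1, 15.9, 14.0 and 15.9 normalised CPM in control mice and 11.0, 9.09, 15.6 and 8.04 in zinc deficient mice (log2 fold change -0.54, SE 0.20, edgeR adjusted p = 0.316). Here zinc deficient replicate 3 lay within the control range. The kinases Plk1, which drives mitotic entry, and Aurka, which acts at the spindle poles, had log2 fold changes of -0.61 and -0.73 with overlapping groups. Cks2, the small adaptor bound by Cdk1, was 3.18, 3.36, 5.17 and 5.19 normalised CPM in control mice and 4.86, 4.17, 4.39 and 3.18 in zinc deficient mice. Its log2 fold change was -0.0084 (SE 0.28, edgeR adjusted p = 0.995), the closest to 0 of the 35 genes, and it turned above 0 with the size factors of DESeq2.

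The 5 genes of the spindle checkpoint and the anaphase-promoting complex had a median of -0.92. Of them 1 passed the adjusted test, where 0.257% of all genes tested passed as lower. Ube2c, the ubiquitin-conjugating enzyme that feeds the complex, was 10.9, 16.4, 14.2 and 14.2 normalised CPM in control mice and 9.17, 6.69, 6.46 and 7.11 in zinc deficient mice. No zinc deficient mouse reached the lowest control mouse. Ube2c fell from 13.9 ± 2.25 to 7.36 ± 1.24 (SD, n = 4 each), a log2 fold change of -0.92 (SE 0.20, edgeR adjusted p = 0.0484). Bub1b, which encodes the checkpoint protein BubR1, was 7.66, 9.51, 7.94 and 6.35 normalised CPM in control mice and 6.80, 2.65, 3.27 and 2.81 in zinc deficient mice. The overlap came from zinc deficient replicate 1 alone, and the log2 fold change was -1.02 (SE 0.29, edgeR adjusted p = 0.149). Ttk, the Mps1 kinase at the top of the checkpoint, did not overlap between diets (2.43 ± 0.352 against 1.27 ± 0.399, SD, n = 4 each, log2 fold change -0.93). Cdc20, the activator of the complex, and Bub1, a checkpoint kinase, had log2 fold changes of -0.70 and -0.77 with overlap, and Bub1 had an unadjusted edgeR p of 0.110.

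The 5 genes of the chromosomal passenger complex and the kinetochore had a median of -0.83. At an unadjusted p under 0.05, 4 were lower, where 6.04% of all genes tested were. None passed the adjusted test, where 0.257% of all genes tested passed as lower by edgeR and 0.761% by DESeq2. Aurkb, the kinase of the passenger complex, was 7.98, 6.23, 5.55 and 6.46 normalised CPM in control mice and 4.32, 1.52, 5.26 and 3.27 in zinc deficient mice, without overlap (log2 fold change -0.85, SE 0.30). Its partners Birc5 (survivin) and Cdca8 (borealin) had log2 fold changes of -0.83 and -0.74. Zinc deficient replicate 3 lay within the control range for both partners.

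Cenpe, a kinetochore motor, was 4.37, 4.51, 1.13 and 4.34 normalised CPM in control mice and 0.863, 1.39, 1.36 and 2.24 in zinc deficient mice. Control replicate 3 lay with the zinc deficient mice, and the log2 fold change was -1.30 (SE 0.42, edgeR adjusted p = 0.234). Cenpf, a microtubule-binding kinetochore protein, was 3.88, 5.16, 2.14 and 3.07 normalised CPM in control mice and 3.24, 2.65, 3.11 and 4.86 in zinc deficient mice. Cenpf was the single gene of the 35 in which no zinc deficient mouse lay below the lowest control mouse, and its log2 fold change was -0.055 (SE 0.32, edgeR adjusted p = 0.973). Whether Cenpf differed from Cenpe was not tested.

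The 5 spindle genes had a median of -0.96. All 5 were lower at an unadjusted p under 0.05, where 6.04% of all genes tested were. Nusap1, which bundles microtubules around chromosomes, was 9.92, 11.4, 6.81 and 8.79 normalised CPM in control mice and 4.21, 5.18, 4.79 and 3.55 in zinc deficient mice. The groups did not overlap. Nusap1 fell from 9.23 ± 1.93 to 4.43 ± 0.708 (SD, n = 4 each), a log2 fold change of -1.07 (SE 0.23, edgeR adjusted p = 0.0473). Prc1, which crosslinks the midzone microtubules, was 10.1, 8.20, 5.93 and 6.67 normalised CPM in control mice and 3.45, 3.79, 5.66 and 3.65 in zinc deficient mice, also without overlap (log2 fold change -0.90). Tpx2, which activates Aurka, and Spag5 (astrin) were separated as well, with log2 fold changes of -0.93 and -0.96. Hmmr, a spindle pole protein, had a log2 fold change of -1.24 (SE 0.40) with overlap.

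Of the pair of cytokinesis genes, Ect2, the exchange factor that activates RhoA at the cleavage furrow, was 8.79, 10.2, 7.19 and 9.53 normalised CPM in control mice and 3.78, 3.54, 6.30 and 3.74 in zinc deficient mice. The groups did not overlap, and zinc deficient replicate 3 was the nearest to the control mice (log2 fold change -1.03, SE 0.24, edgeR adjusted p = 0.0706). Anln, the scaffold protein anillin, was 3.53 ± 1.02 against 2.22 ± 0.403 (SD, n = 4 each), with a log2 fold change of -0.68 and an unadjusted edgeR p of 0.0536.

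**Figure D3:**
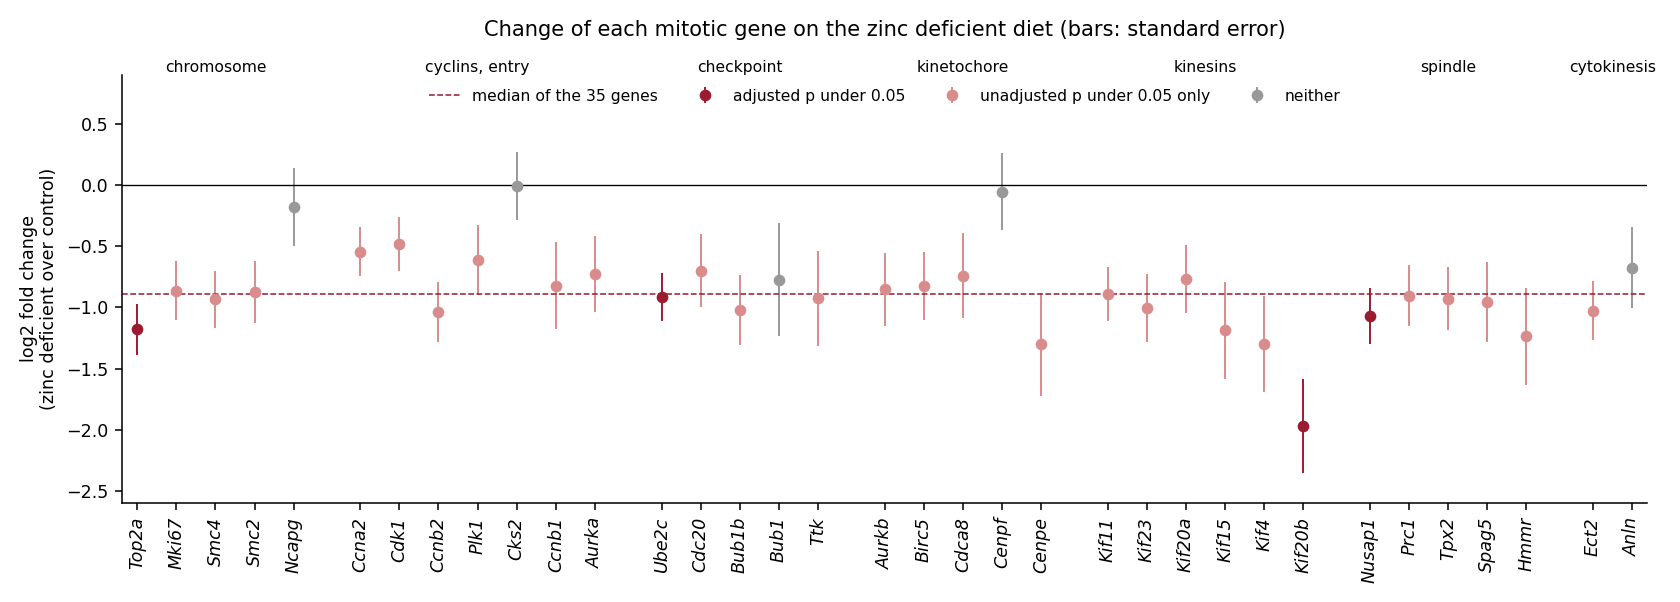
Log2 fold change of zinc deficient over control mice for each gene (points, with bars for the standard error), ordered by role, with dark red for an adjusted p under 0.05, pale red for an unadjusted p under 0.05 alone and grey for neither, and a dashed line at the median of the 35 genes. All points lie below 0, Kif20b is the most negative at -1.97, and Cks2 and Cenpf lie next to the line at 0.

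Summed over the 35 genes, the level was 311.1, 303.2, 235.5 and 268.6 normalised CPM in control mice and 156.3, 118.6, 190.1 and 147.0 in zinc deficient mice. The control mean was 280 ± 34.7 and the zinc deficient mean 153 ± 29.5 (SD, n = 4 each), a ratio of 1.83, and the groups did not overlap on this scale. In plain CPM the sums were 487.7, 351.7, 218.3 and 254.3 in control mice and 146.0, 85.2, 207.9 and 124.3 in zinc deficient mice, so that the ratio of the means was 2.33 and the gap between control replicate 3 and zinc deficient replicate 3 was small. As shares of the library these were 0.0218% (95% Wilson interval 0.0209% to 0.0228%) in control replicate 3 and 0.0208% (0.0200% to 0.0216%) in zinc deficient replicate 3. These intervals overlap, and they cover counting error only. Without Top2a the ratio in plain CPM was 2.26. Summed in TPM, the groups overlapped, with 36.9 TPM in the lowest control mouse and 37.2 TPM in the highest zinc deficient mouse.

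The genes come from the same libraries, and some mice were often at the ends of the range. Control replicate 1 was the highest mouse for 17 genes and control replicate 2 for 11. Zinc deficient replicate 2 was the lowest mouse for 16 genes and zinc deficient replicate 4 for 10. Among the zinc deficient mice, replicate 3 was the highest for 19 of the 35 genes. The summed level of tuft cell markers (Dclk1, Trpm5, Pou2f3, Avil, Il25 and Alox5ap) was 317.8 normalised CPM in that mouse against 18.7 to 58.2 in the other zinc deficient mice and 34.4 to 88.5 in control mice. Some markers of other cell types were high in that mouse too. The goblet marker Fcgbp was 842 normalised CPM against 111 to 192 in the other zinc deficient mice and 249 to 439 in control mice. Zg16 was also highest in that mouse. Other goblet markers were not. Spink4 was 5181 there against 5517 to 9171 in the other zinc deficient mice, and Muc2, Tff3 and Clca1 lay within the range of those mice. The enterocyte marker Fabp1 was 23.4 against 1.14 to 7.58. In normalised CPM the summed goblet level (7962) and enterocyte level (360.9) of that mouse lay within the range of the other mice. Its enterocyte sum was the highest of all mice in plain CPM (394.7) and in TPM (156.1). The part of these differences in the mitotic values of that mouse was not tested.

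The mitotic genes were then set against related lists. Of 82 other genes of mitosis, 76 were tested and 70 had lower values on the zinc deficient diet, where 50.7% of all genes tested did. At an unadjusted p under 0.05, 41 were lower, where 6.04% of all genes tested were. The median was -0.71, and none passed the edgeR adjusted test, where 0.257% of all genes tested passed as lower. DESeq2 called 3 as lower, where 0.761% of the genes it tested passed in that direction. The smallest p-values belonged to Ncapd2, another condensin subunit (17.0 ± 3.87 against 8.36 ± 2.56 normalised CPM, SD, n = 4 each, edgeR adjusted p = 0.0553), Spc24, a subunit of the kinetochore Ndc80 complex (log2 fold change -1.21, edgeR adjusted p = 0.0620), and Hmgb2, a chromatin protein (log2 fold change -0.69, edgeR adjusted p = 0.0756). The most abundant of these genes are also used outside mitosis. The tubulin Tubb5 had a log2 fold change of -0.56, the importin Kpna2 of 0.13 and the phosphatase Cdc25a of 0.076. The summed level of the list was 608 ± 24.3 against 450 ± 47.9 normalised CPM (SD, n = 4 each), without overlap. In plain CPM the sums overlapped, with 539.2 in the lowest control mouse against 539.9 in the highest zinc deficient mouse, and they overlapped in TPM as well.

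Genes of DNA replication were lower too. Of 34 S-phase genes, 32 had lower values on the zinc deficient diet, where 50.7% of all genes tested did. At an unadjusted p under 0.05, 21 were lower, where 6.04% of all genes tested were. By edgeR 3 passed the adjusted test, where 0.257% of all genes tested passed as lower, and the median was -0.67. DESeq2 called 7 as lower, where 0.761% of the genes it tested passed in that direction. In normalised CPM every zinc deficient mouse was below every control mouse for 15 of them, where 3.79% of all genes tested showed this. The helicase subunits Mcm6 and Mcm7 fell by 0.88 and 0.83 on the log2 scale (edgeR adjusted p = 0.0376 and 0.0384), and Cdt1, which loads the helicase, fell by 1.14 (edgeR adjusted p = 0.0393). Pcna, the sliding clamp, was 29.7 ± 4.36 against 28.7 ± 3.67 normalised CPM (SD, n = 4 each, log2 fold change -0.046), and Rrm1, a subunit of ribonucleotide reductase, had a log2 fold change of -0.67.

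Genes of G1 and of cell cycle exit gave smaller values. Of 14, 13 were tested and 9 were lower, where 50.7% of all genes tested were. At an unadjusted p under 0.05, 2 were lower, where 6.04% of all genes tested were. The median was -0.16, and none passed the edgeR adjusted test, where 0.257% of all genes tested passed as lower. DESeq2 called 1 as lower, where 0.761% of the genes it tested passed in that direction. The D-type cyclins Ccnd2 (log2 fold change -0.74, edgeR adjusted p = 0.0882) and Ccnd1 (-0.58) had the smallest p-values. The Cdk inhibitors Cdkn1b (log2 fold change -0.20) and Cdkn1a (0.039), and Ccng1 (-0.049) and Btg2 (0.0041), which respond to p53, were near 0.

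Markers of crypt stem and transit amplifying cells were lower alongside the mitotic genes. All 10 had lower values on the zinc deficient diet, where 50.7% of all genes tested did. At an unadjusted p under 0.05, 8 were lower, where 6.04% of all genes tested were. Cd44 and Sox4 passed the edgeR adjusted test, where 0.257% of all genes tested passed as lower, and the median was -0.75. DESeq2 called 3 as lower, where 0.761% of the genes it tested passed in that direction. Cd44, a surface receptor of crypt base cells, fell by 1.02 on the log2 scale (edgeR adjusted p = 0.0343), and Sox4, a progenitor transcription factor, fell by 0.75 (edgeR adjusted p = 0.0484). The summed level of the list was 1763 to 2329 normalised CPM in control mice and 809 to 1469 in zinc deficient mice, without overlap, and none of its markers was at 0 in either group. All 7 Paneth cell markers had higher values on the zinc deficient diet, where 5374 of the 10911 genes tested did. Their median was 0.43, and none passed the edgeR adjusted test. Their summed level was 482855 ± 146302 normalised CPM in control mice and 632079 ± 149236 in zinc deficient mice (SD, n = 4 each), with overlap. The antimicrobial ribonuclease Ang4, named after its values were seen, was the 1 marker with an unadjusted p under 0.05, in the higher direction, where 4.43% of the genes tested were. Some of the stem and transit amplifying markers are also known in Paneth cells. The sort was set to collect Paneth cells, and whether stem and transit amplifying cells were carried over was not measured here. The part of stem and transit amplifying cells in the mitotic values was not tested.

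**Figure D4:**
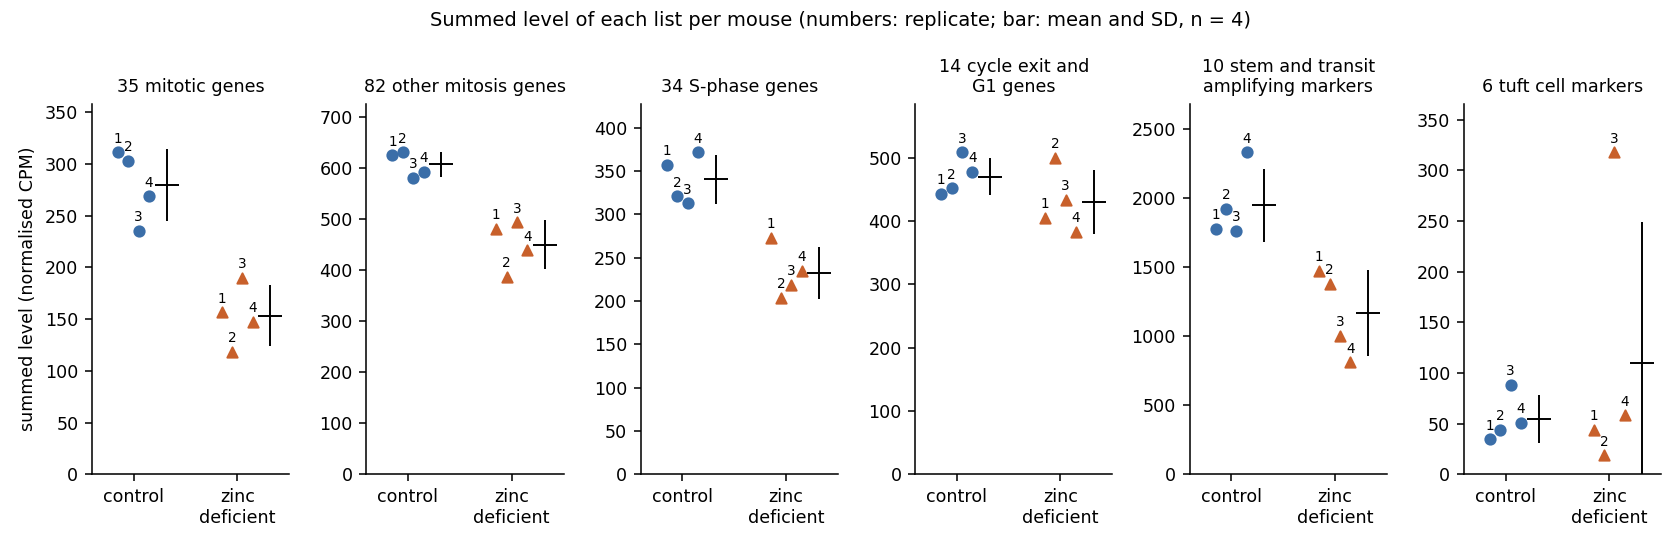
Summed level per mouse, in normalised CPM, of the 35 mitotic genes and 5 other lists, with circles for control and triangles for zinc deficient mice, replicate numbers above the points and bars for the mean and SD (n = 4). The sums of the mitotic genes, other mitosis genes, S-phase genes and stem and transit amplifying markers do not overlap between diets on this scale (those of the mitotic genes overlap in TPM, and those of the other mitosis genes in plain CPM and TPM), whereas zinc deficient replicate 3 stands apart for tuft markers, where the SD bar is cut off at 0.

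Exons of 19 of the 35 genes overlap those of a gene on the opposite strand, 11 of them those of a protein-coding gene. The longest overlaps were those of Kif20a with Cdc23 (2748 bases, log2 fold change of Cdc23 -0.087) and Ncapg with Lcorl (2118 bases, -0.10). Of the genes that passed the adjusted test, Nusap1 overlaps Oip5 (239 bases, -0.81) and Ube2c overlaps Tnnc2 (616 bases), which had 0 counts. Prc1 overlaps Rccd1 (1092 bases, -0.66) and Aurka overlaps Cstf1 (293 bases, -0.48). The other partners tested were between -0.22 and 0.22, and no partner passed the edgeR adjusted test. The library kit marks strand, but whether the counting used it is not stated in the sources at hand. Some genes also share near-identical stretches with pseudogenes. For Cks2 these were Gm15452 (240 bases, 100% identity) and Gm19945 (240 bases, 99.6%). For Ccnb1 they were Ccnb1-ps, Gm12856 and Gm8416 (97.4% to 99.2%), and for Cenpe it was Gm8669 (93.4%). How reads from such stretches were counted is not stated either.

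The median of the 35 genes was between -1.25 and -0.80 over 16 alternatives, and 34 or 35 genes were below 0 in each, the exceptions being Cks2 and Cenpf. The number passing the adjusted test, 4 with all mice, was 0 with library sizes alone as the scaling, without control replicate 2, without control replicate 4, without zinc deficient replicate 2 or without zinc deficient replicate 4.

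**Figure D5:**
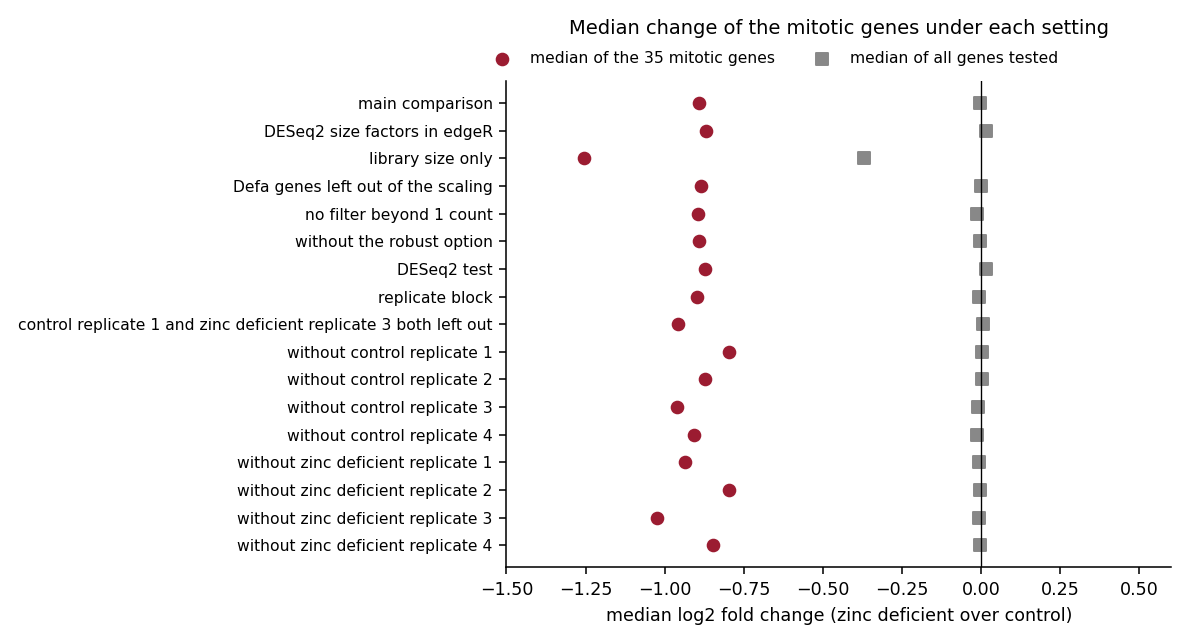
Median log2 fold change of the 35 mitotic genes (circles) and of all genes tested (squares) in the main comparison and under each of 16 alternatives. The mitotic median stays between -1.25 and -0.80, and it moves furthest with library size as the sole scaling, where the median of all genes moves to -0.37.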

How the data were processed

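RNA was measured in sorted Paneth cells of 8 mice, with 1 stranded mRNA library (TruSeq) per mouse. The table the authors deposited gives raw counts for each Ensembl identifier. The submitters' processing notes name FastQC 0.12.0, STAR 2.7.0a, DESeq2 and mm39. Which program counted the reads, with which strand setting and annotation, is not given in the sources used here. In GENCODE M39 on GRCm39, 54749 of 55414 identifiers were named. Groups were taken from the sample labels. Of 8 libraries, no pair of one diet differed by as little as sampling noise.

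CPM are counts per 1000000 of the library, and normalised CPM use the library size multiplied by the TMM factor. The diets' counts were tested in edgeR 4.0.16 under R 4.3.3 (TMM, its expression filter, robust quasi-likelihood test, Benjamini-Hochberg adjustment over 10911 genes, threshold 0.05), tested on simulated data. The SE is the log2 fold change divided by the square root of F. DESeq2 1.42.0, other scalings, filters and left-out mice were alternatives. Lists are described by counts and medians, beside the same over all genes tested. The 35 genes and all lists were chosen with earlier results of these data known. All 35 genes were named. In each other list the genes passing the adjusted test were named, and for other mitosis, S-phase and cell cycle exit genes also the 3 with the smallest p and the 3 with the highest mean CPM. Of the other marker lists (enterocyte, goblet, enteroendocrine, tuft and immune), none had a gene that passed by edgeR, and 1 immune gene had an unadjusted p under 0.05.

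Motifs were searched on both strands, from 250 bases before to 50 after the start of the Ensembl canonical transcript, in the GRCm39 genome. Exon overlaps were read from the GENCODE M39 coordinates, and near-identical stretches in transcripts of other genes were found with minimap2 2.31.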

Additional observations from a re-analysis of the deposited data

Results flagged for a closer look

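In 72 groups of 4 mice (each of the 35 genes and their sum, in each diet), 7 had 1 mouse far from the other 3, with a gap to its neighbour, as a share of the range, above Dixon's 95% critical value. Chance alone gives about 1 in 20 such groups, and the genes of a library are not independent. Zinc deficient replicate 3 was the high mouse for Kif20b (1.60 normalised CPM against 0.647 to 0.758 in the other 3), Prc1 (5.66 against 3.45 to 3.79) and Ect2 (6.30 against 3.54 to 3.78). Zinc deficient replicate 1 was high for Bub1b (6.80 against 2.65 to 3.27). Among control mice, replicate 1 was low for Cdk1 (8.47 against 11.5 to 11.6), replicate 3 for Cenpe (1.13 against 4.34 to 4.51) and replicate 4 for Anln (2.01 against 3.91 to 4.26).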

How the results depend on the processing

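Over 16 alternatives, 551 of 560 fold changes of single genes were below 0 in zinc deficient mice, and the 9 above 0 belonged to Cks2 and Cenpf. Cks2 was at 0.0096 with DESeq2 size factors in edgeR, 0.013 by the DESeq2 test, and from -0.13 to 0.11 with 1 mouse left out, above 0 without control replicate 3, control replicate 4 or zinc deficient replicate 4. Cenpf was from -0.26 to 0.18 with 1 mouse left out, above 0 without control replicate 2, zinc deficient replicate 2 or zinc deficient replicate 3, and at 0.043 with control replicate 1 and zinc deficient replicate 3 both left out, an alternative chosen after seeing the data. The count of mitotic genes passing the adjusted test, 4, was 2 with DESeq2 size factors, 0 with library size only, 13 with no filter beyond 1 count, 2 without the robust option, 8 by the DESeq2 test and 0 to 3 with 1 mouse left out. The count over all genes, 44, was 11 with library size only, 251 with no filter, 25 without the robust option, 146 by DESeq2 and 8 to 36 with 1 mouse left out. Of the other mitosis genes, 8 passed with no filter, 3 by DESeq2 and 0 to 1 with 1 mouse left out. The median of the mitotic genes was -1.25 with library size only, where that of all genes was -0.37, and the difference of these medians was between -1.02 and -0.79 in every alternative. Top2a ranked 5 by TPM rather than 1. With the replicate number as a block, 2 mitotic genes and 1 other mitosis gene passed. Mice with the same number correlated at 0.0299 to 0.0900 in their deviations, so the numbers were not taken as pairs, although 3 of 4 control mice and 2 of 4 zinc deficient mice matched their own number best. The cause of these shifts was not tested. Top2a passed in 11 of 16 alternatives (adjusted p by edgeR or DESeq2 1.12e-08 to 0.116), Kif20b in 8 (0.000698 to 0.129), Nusap1 in 4 (0.00463 to 0.252) and Ube2c in 3 (0.00437 to 0.252). Counts of 5 to 825 per gene and library limit the precision for the lowest genes.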
